A study of Arabidopsis thaliana with 32 samples.

Results

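The comparison set polysome RNA of an MCU2 overexpressor directly against polysome RNA of a sextuple mcu mutant, which are the gain-of-function and the knockdown ends of the study. Members were the libraries labelled 2OX polysome (replicates 1 to 3) and sextuple polysome (replicates 1 to 3), so 6 of the 32 samples of the series. The 2OX plants carried a 35S:MCU2-YFP transgene in the Col-0 accession of Arabidopsis thaliana and came from 1 line, in which the viral 35S promoter drives the fusion in most tissues. The sextuple mutant, also in Col-0 and also 1 line, combined T-DNA alleles of MCU1, MCU3 and MCU4 (mcu1-1, mcu3-1 and mcu4-1, in exons by the study's methods) and of MCU2 and MCU6 (mcu2-1 and mcu6-1, in promoter regions, so reads of these genes can remain) with mcu5-1, a genome-edited allele of MCU5. Wild-type Col-0 polysome libraries (4 in all) are given as levels beside the values, with no test. All plants were whole seedlings harvested 10 days after sowing, with roots and shoots together. The study's methods call the replicates of its total RNA libraries biological, and for the gradient fractions speak of replicates alone. Nothing in the labels says that the replicates of a line were separate cultures, so p-values measure the spread between these samples, which may be technical.

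MCU proteins form the pore of the mitochondrial calcium uniporter, which carries calcium across the inner membrane into the matrix, and MICU gates it from the intermembrane space by sensing calcium. Disturbed mitochondria signal to the nucleus by retrograde signalling. In Arabidopsis this involves the membrane-tethered transcription factors NAC013 and NAC017, which bind a promoter element called the mitochondrial dysfunction motif and induce alternative oxidase and a set of other genes. Polysomes are mRNAs loaded with several ribosomes, separated from monosomes on a sucrose gradient, and their RNA reflects both how much transcript is present and how well it is loaded. Total RNA was not analysed here, so these contributions were not separated. The monosome fraction of the same extracts is set beside some values, but it too depends on both.

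The values are the authors' library-size adjusted abundances per gene (called values below), which were not corrected for gene length, and each comparison is therefore of 1 gene between libraries. They are not read counts, so the depth in reads is unknown. The values of the 2OX polysome libraries summed to between 28733570 and 38319305, those of the sextuple libraries to between 27970896 and 33428590, and those of wild type to between 28129673 and 37937060. Ribosomal RNA took 11.8 to 15.8% of the sum in 2OX, 9.2 to 12.6% in the sextuple mutant and 7.6 to 17.1% in wild type, and 1 further locus annotated as other RNA, AT3G06365, took 19.7 to 26.8%, 15.1 to 23.1% and 12.9 to 26.3%. 1 library stood apart. 2OX replicate 2 correlated with 2OX replicates 1 and 3 at r = 0.964 and 0.966 over 16271 genes, while these correlated with each other at 0.981 and the sextuple libraries among themselves at 0.981 to 0.983. Its closest library was sextuple replicate 2, at 0.973. Differences are therefore also given without 2OX replicate 2 where this changed a call. The 16 root and 12 shoot marker genes were present in all libraries. Of the 15 root markers tested 0 were called, with 3 at unadjusted p under 0.05, and their summed value was 8737 to 11121 in 2OX, 9932 to 11272 in the sextuple mutant and 9831 to 11245 in wild type. All 12 shoot markers were tested and 0 were called, also 0 at unadjusted p under 0.05.

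Of 24543 genes listed for both lines, 19870 reached 10 or more in 3 or more of the 6 libraries and were tested with limma on log2(value + 1). After Benjamini-Hochberg adjustment 94 genes (0.473%) had an adjusted p under 0.05 and are described as called. Of these, 55 (0.277%) were higher in 2OX and 39 (0.196%) were lower in 2OX than in the sextuple mutant. At unadjusted p under 0.05 there were 2051 genes (10.3%). In all 94 called genes the 3 libraries of the lines did not overlap, as was the case for 15.4% of all genes tested. The increases were larger than the decreases. The 55 higher genes had log2 differences (2OX minus sextuple) of 0.74 to 6.38 with a median of 1.53, and 17 of them were at 3 or more. The 39 lower genes ranged from -5.44 to -0.74 with a median of -1.22, and 2 of them were at -3 or below. The median over all genes tested was 0.00. In whole seedlings, fewer cells of a type and less RNA per cell cannot be told apart.

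**Figure D1:**
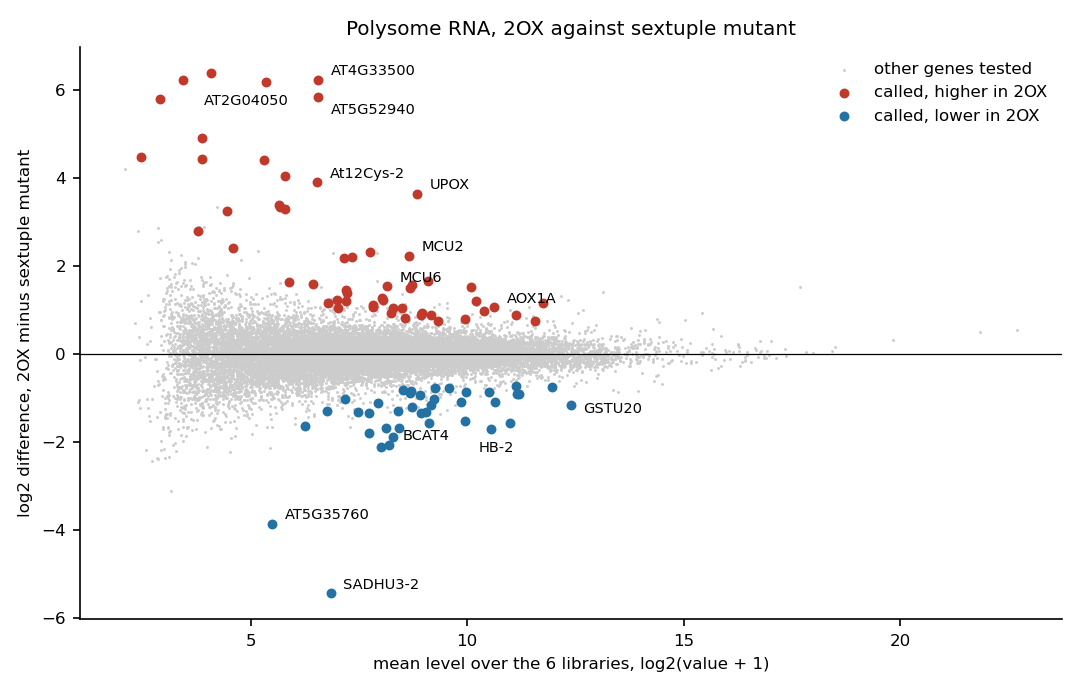
Difference between 2OX and sextuple polysome RNA for the 19870 genes tested. The x axis is the mean log2(value + 1) over the 6 libraries and the y axis is the log2 difference, 2OX minus sextuple, with the 55 called increases above 0 and the 39 called decreases below 0 in colour. The called increases reach 6.38 and the called decreases -5.44.

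The number of calls depended strongly on which libraries were in the fit. Without 2OX replicate 2 there were 655 calls (3.3%), of which 299 (1.5%) were higher and 356 (1.79%) lower, and the 94 genes were all among them. Leaving out one of the others gave fewer calls: 53 without 2OX replicate 1, 64 without 2OX replicate 3, 43 without sextuple replicate 1, 40 without sextuple replicate 2 and 43 without sextuple replicate 3. All 94 genes kept their direction whichever library was left out, and 33 of them (21 higher and 12 lower) were called each time. Genes described below that are not among these 33 are named with the library on which the call rested.

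The uniporter genes themselves came first as a check of the labels. MCU2 (AT1G57610, chr1:21337125-21339034, RefSeq on TAIR10.1), the overexpressed gene, had values of 999, 763 and 892 in 2OX, against 208, 176 and 176 in the sextuple mutant and 196 to 261 in wild type. The 2OX libraries lay far above both other groups, and the reads of the transgene and of the endogenous gene are not distinguished. The mean was 885 ± 118 in 2OX and 187 ± 18.5 in the sextuple mutant (SD, n = 3 each), which was 4.7-fold and a log2 difference of 2.23 ± 0.16 (SE, limma adjusted p = 1.3e-05). The sextuple libraries lay at or just below the low end of the wild-type range. MCU6 (AT5G66650, chr5:26603003-26607012) had 647, 371 and 456 in 2OX, against 145, 246 and 126 in the sextuple mutant and 314 to 396 in wild type. Here the sextuple libraries were the ones outside the wild-type range, and the difference was 1.53 ± 0.26 (adjusted p = 0.02), which was not past the threshold without 2OX replicate 1 (0.075), without 2OX replicate 3 (0.056), without sextuple replicate 1 (0.14) or without sextuple replicate 3 (0.1).

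MCU1 (AT1G09575) and MCU3 (AT2G23790) did not overlap between the lines but were not called. MCU1 had 179, 138 and 193 in 2OX, against 101, 52.8 and 108 in the sextuple mutant and 140.4 to 225 in wild type, a log2 difference of 1.01 ± 0.28 (adjusted p = 0.18, and 0.036 without 2OX replicate 2). MCU3 had 609, 418 and 498 in 2OX, against 301, 284 and 341 in the sextuple mutant and 459 to 567 in wild type, a log2 difference of 0.71 ± 0.17 (adjusted p = 0.13, and 0.01 without 2OX replicate 2). For both genes 2OX was near wild type and the sextuple libraries lay below it. MCU4 (AT4G36820) had 6.79, 8.06 and 17.9 in 2OX, against 18.6, 4.09 and 3.78 in the sextuple mutant, and MCU5 (AT5G42610) had 8.83, 0.387 and 13.9 in 2OX, against 5.41, 5.83 and 6.76 in the sextuple mutant. Both were too low to be tested in polysome RNA. MCU4 was tested in monosome RNA, with 45.2, 29.2 and 36.9 in 2OX, against 3.93, 5.33 and 19.5 in the sextuple mutant and 1.61 to 25 in wild type. These libraries did not overlap between the lines, but the gene was not called (log2 difference 2.12 ± 0.74, limma adjusted p = 0.31) and the sextuple values lay within the wild-type range. MCU5 was too low in both fractions. The regulator MICU (AT4G32060) had 3610.2, 2851 and 4113 in 2OX, against 4189, 3369 and 3690.4 in the sextuple mutant, with overlapping libraries (log2 difference -0.10 ± 0.16, adjusted p = 0.87). Of the 5 uniporter genes tested 2 were called (40%, beside 0.473% of all genes tested), both higher, with a median of 1.01 beside 0.00 over all genes. The lines were built to differ at the MCU genes, so this count is only a check of the labels. Of 32 genes tested among the 5 annotated neighbours on either side of each MCU gene, 0 were called, with 4 at unadjusted p under 0.05 and 2 called without 2OX replicate 2.

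**Figure D2:**
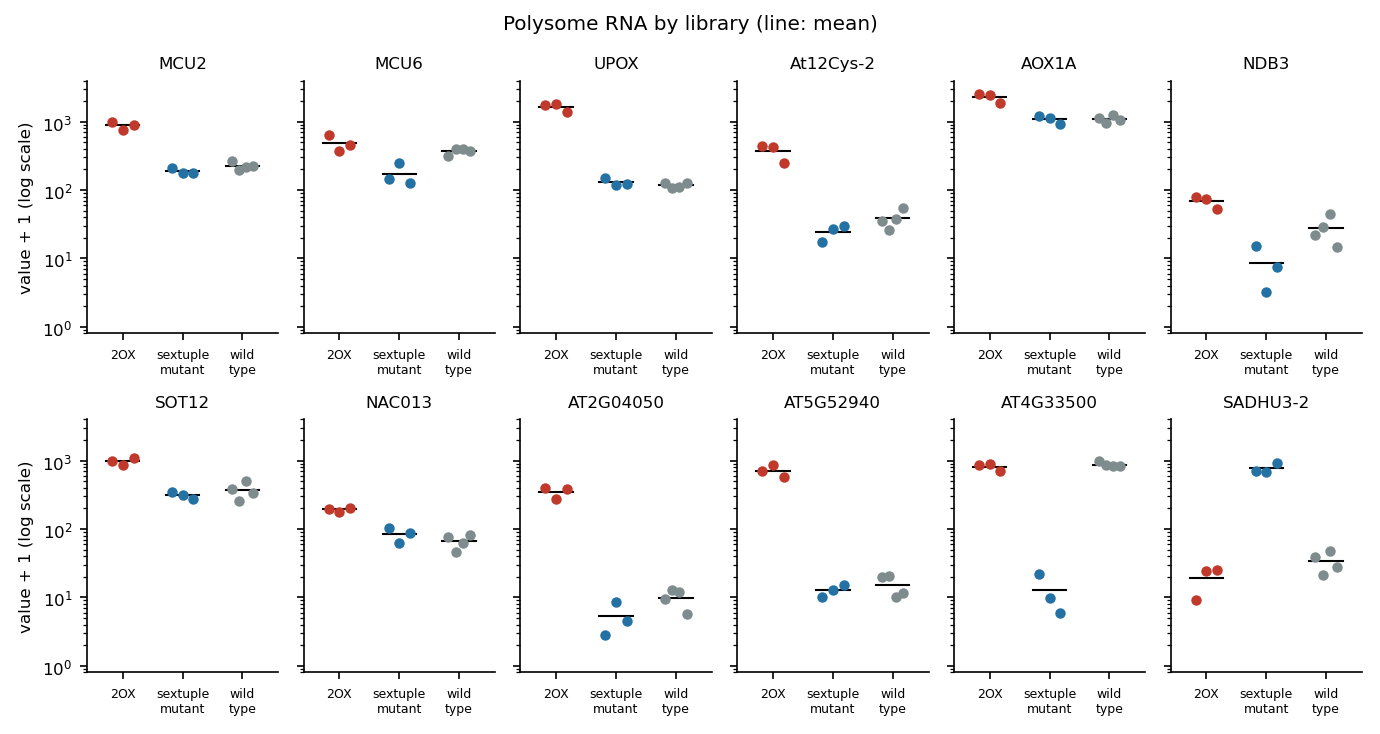
Values of 12 genes in each polysome library of 2OX, the sextuple mutant and wild type, on a log axis of value + 1, with 1 point per library and a line at the group mean. For MCU2, UPOX and At12Cys-2 the 2OX libraries stand above both other groups, while for AT4G33500 and SADHU3-2 it is the sextuple libraries that stand apart.

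Some genes of mitochondrial retrograde signalling were among the large increases in 2OX. Of 12 genes in the mitochondrial dysfunction stimulon list, 5 were called (41.7%, beside 0.473% of all genes tested), all higher. The median log2 difference over the 12 was 0.60, beside 0.00 over all genes. UPOX (AT2G21640, chr2:9254378-9255743), a mitochondrial protein that oxidative stress induces, had values of 1734, 1784 and 1382 in 2OX, against 151, 119 and 120.3 in the sextuple mutant. Wild type was at 107 to 125, so the sextuple mutant was near wild type and all 3 2OX libraries were far above both. The difference was 12.5-fold (log2 3.64 ± 0.17, adjusted p = 1.4e-07). At12Cys-2 (AT5G09570), which encodes a small cysteine-rich mitochondrial protein, had 438, 418 and 247 in 2OX, against 16.3, 26.1 and 28.3 in the sextuple mutant and 24.9 to 53.6 in wild type. This was 14.9-fold (log2 3.90 ± 0.29, adjusted p = 1.4e-05). AOX1A (AT3G22370), the alternative oxidase that takes electrons from ubiquinol past complexes III and IV, had 2539, 2474 and 1862 in 2OX, against 1226, 1137 and 926 in the sextuple mutant and 969 to 1238 in wild type. Again the sextuple and wild-type libraries overlapped and 2OX lay above both, with a log2 difference of 1.06 ± 0.16 (adjusted p = 0.0084). AOX1A was not past the threshold without sextuple replicate 2 (0.059) or without sextuple replicate 3 (0.06).

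SOT12 (AT2G03760), a sulfotransferase, had 991, 867 and 1076 in 2OX, against 346, 312 and 273 in the sextuple mutant and 252 to 503 in wild type (log2 difference 1.65 ± 0.16, adjusted p = 0.00013). NAC013 (AT1G32870), the regulator, had 196, 179 and 205 in 2OX, against 101, 62.3 and 87.7 in the sextuple mutant and 45.1 to 81 in wild type (1.22 ± 0.23, adjusted p = 0.035). The NAC013 call needed all 6 libraries or the absence of 2OX replicate 2, since leaving out any of the other 5 gave adjusted p from 0.066 to 0.17. The remaining 7 members were not called. NAC017 was level, with 1255, 1219 and 1249 in 2OX, against 964, 1135 and 1298 in the sextuple mutant (log2 difference 0.14), and so was the AAA-ATPase gene OM66 at 0.00. HSP23.5, a small mitochondrial heat shock protein, had 54.4, 109.8 and 56.6 in 2OX, against 49.1, 19.7 and 19.5 in the sextuple mutant (1.35, adjusted p = 0.24). The differences were -0.11 for NDB2, -0.22 for GSTU24, -0.35 for GSTU25 and -0.28 for AT2G41380. The list therefore split between a few genes with large differences and several with none that could be told from the spread.

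Alternative respiration comprises the alternative oxidases and the type II NAD(P)H dehydrogenases, which feed electrons into the chain without pumping protons. Of 12 such genes 8 passed the filter on low values. Of these 2 were called (25%, beside 0.473% of all genes tested), AOX1A and NDB3, both higher. NDB3 (AT4G21490), an external NAD(P)H dehydrogenase, had 77.3, 72.2 and 52.6 in 2OX, against 14.2, 2.18 and 6.55 in the sextuple mutant and 13.6 to 43.8 in wild type. All 3 2OX libraries were above wild type and 2 of the sextuple libraries below it, and the log2 difference of 3.24 ± 0.55 (adjusted p = 0.019) was not past the threshold without 2OX replicate 1 (0.091), 2OX replicate 3 (0.055) or sextuple replicate 3 (0.065). NDB4 had 40.9, 56.1 and 28.8 in 2OX, against 7.16, 11.3 and 0.738 in the sextuple mutant, with libraries that did not overlap but no call (2.89 ± 0.69, adjusted p = 0.12). NDB3 and NDB4 needed their 2OX libraries to pass the filter. AOX1B, AOX1C, AOX1D and AOX2 were below the filter. For mitochondrial protein import and proteases, a list the study chose, 27 genes were tested, with log2 differences from -0.42 to 2.06. At unadjusted p under 0.05, 5 were higher and 1 lower, and 1 gene was called (3.7%, beside 0.473% of all genes tested). This was TOM7-2 (AT1G64220), a small subunit of the outer-membrane translocase, at 203, 296 and 182 in 2OX, against 104, 83.5 and 101 in the sextuple mutant and 72.7 to 131 in wild type (1.20 ± 0.23, adjusted p = 0.037). It was not past the threshold without 2OX replicate 1 or any 1 of the sextuple libraries (0.077 to 0.2).

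The mitochondrial dysfunction motif was searched as CTTG, any 5 bases and then CAAG or CACG, on both strands in the 1000 bases before the RefSeq start of each gene (TAIR10.1). At least 1 match was present before 16 of the 55 called increases (29.1%) and before 0 of the 39 called decreases, against 776 of 19793 genes tested that had a window (3.92%). Within the nearest 300 bases the counts were 16 of 55, 0 of 39 and 212 of 19793 (1.07%). The form ending in CAAG was found before 10 of the 55 (2.43% of all genes) and the form ending in CACG before 7 (1.59% of all genes). Not all of the 16 were raised above wild type in 2OX. For CRF6, TPPG and UMAMIT33 the sextuple libraries all lay below wild type, and the 2OX libraries did not all lie above it. In the stimulon list 4 of 12 genes had a match. Of its called members only UPOX had one, and AOX1A, At12Cys-2, SOT12 and NAC013 had none. The called genes held 19 matches, of which 18 were within 300 bases, at 25 to 542 bases before the start. Matches before some of the largest increases are shown on the strand of the gene, 5′ to 3′, with 8 bases on either side and the motif in capitals. They are described as letters in a window and not as sites of binding.
UPOX (chr2:9254319-9254347, plus strand, 51 bases before the start): tttagtaaCTTGCTCTCCAAGgagatcta
AT5G54550 (chr5:22158298-22158326, plus strand, 58 bases): attgaagaCTTGGTGGGCAAGgccattgc
AT5G54450 (chr5:22109476-22109504, minus strand, 117 bases): tccaaaaaCTTGGCGGACAAGgcaatttc
AT5G52930 (chr5:21470235-21470263, plus strand, 56 bases): tccaaagaCTTGGTGGGCACGgtgatacc
AT2G04050 (chr2:1339604-1339632, minus strand, 156 bases): tatacgaaCTTGGTCCCCAAGtatatttc
AT2G04050 (chr2:1339663-1339691, minus strand, 215 bases): tattagaaCTTGATTCCCAAGtaatcttt
AT2G42065 (chr2:17553063-17553091, minus strand, 55 bases): ggacagtcCTTGGAGACCAAGcaaaaatt
AT4G12735 (chr4:7494323-7494351, minus strand, 109 bases): ttattaagCTTGGCCGCCAAGttataatg
AT5G24640 (chr5:8436264-8436292, plus strand, 80 bases): attaatttCTTGGTGGACAAGcatgtttg
AT3G58150 (chr3:21534140-21534168, minus strand, 25 bases): aaaatttcCTTGCACGGCAAGgtctgatt
NDB3 (chr4:11439612-11439640, minus strand, 126 bases, motif on the opposite strand): actcttgcCGTGGCCGTCAAGtcaaacca
The 3 genes that follow UPOX encode proteins with a DUF295 domain, and AT2G04050 holds a pair of matches. So do AT4G12735, with a further match at 181 bases that is not shown, and CRF6, at 298 and 542 bases. AT5G52940, a further called DUF295 gene, had no match in its window.

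**Figure D3:**
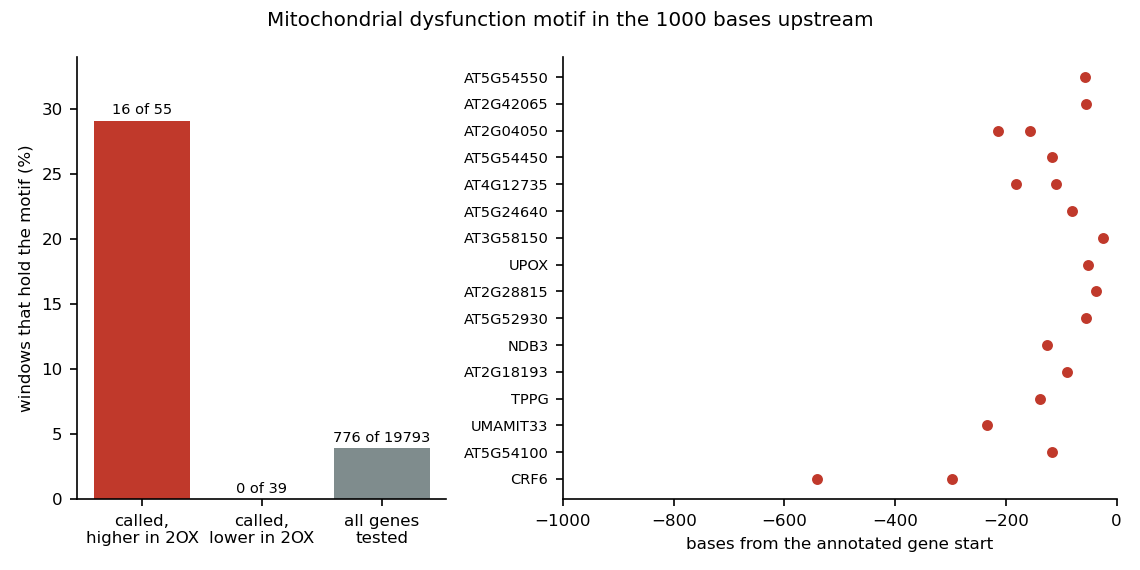
Share of genes with the mitochondrial dysfunction motif in the 1000 bases before the start, for called increases (29.1%), called decreases (0%) and all genes tested (3.92%), and the distance in bases of each match before the start of a called gene. Of the 19 matches 18 lie within 300 bases of the start.

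DUF295 proteins, an F-box-associated family with organelle-targeted members in Brassicaceae, made up several of the largest increases. The family was looked at because its members stood among these, so its count is a description. Of 69 annotated members 16 passed the filter, and 4 of these were called (25%, beside 0.473% of all genes tested), all higher. AT5G54550 and AT5G54450 passed it only through their 2OX libraries, so these genes could be called only as higher. AT5G52940 (chr5:21472103-21473602) had values of 700.2, 871 and 578 in 2OX, against 9.05, 11.6 and 14.2 in the sextuple mutant and 8.98 to 19.3 in wild type. The log2 difference was 5.83 ± 0.25 (adjusted p = 1.4e-07), and the sextuple mutant lay within the range of wild type. Its neighbour AT5G52930 (chr5:21470299-21471861) had 162, 191 and 164 in 2OX, against 10.9, 23 and 18.3 in the sextuple mutant and 7.63 to 25 in wild type (3.29 ± 0.31, adjusted p = 0.00014). AT5G54550 had 168, 146 and 147 in 2OX, against 1.78, 0.0341 and 1.22 in the sextuple mutant and 0 to 3.52 in wild type (6.38 ± 0.52, adjusted p = 3e-05). AT5G54450 had 41.2, 68 and 57.8 in 2OX and was listed at 0 in all 3 sextuple libraries, so no fold is given (adjusted p = 0.0012). In wild type it was at 0.000954 to 1.93. AT5G54550 and AT5G54450 were thus near 0 outside 2OX, while AT5G52940 and AT5G52930 were low there. Reads of close family members could be assigned between them in an unknown way.

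A neighbouring pair of MATE efflux genes also rose. AT2G04050 (chr2:1337180-1339468) had 394, 276 and 379 in 2OX, against 1.86, 7.54 and 3.55 in the sextuple mutant and 4.73 to 11.6 in wild type (log2 difference 6.17 ± 0.40, adjusted p = 4.7e-06). DTX1 (AT2G04040), which exports toxic compounds from the cell, had 155, 143 and 189.5 in 2OX, against 15.3, 11.8 and 19.2 in the sextuple mutant and 35.5 to 56.1 in wild type (3.33 ± 0.30, adjusted p = 8.6e-05). For DTX1 2OX was above and the sextuple mutant below wild type. Of 40 MATE genes tested these 2 were called (5%, beside 0.473% of all genes), and the family's median was 0.12. They were chosen for description after their values were seen, and AT2G04050 passed the filter only through its 2OX libraries.

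Several further increases were of genes that were nearly silent in the other groups. AT2G42065, annotated with a DnaJ domain, had 87.4, 84.3 and 103 in 2OX, against 0.00416, 0.931 and 0 in the sextuple mutant and 1.89 to 6.88 in wild type (6.21 ± 0.60, adjusted p = 0.00015). AT4G12735 had 67.6, 85.2 and 88 in 2OX, against 3.54, 1.94 and 0.438 in the sextuple mutant and 5.75 to 9.26 in wild type (4.91 ± 0.56, adjusted p = 0.0007). AT5G24640 had 177, 143 and 242 in 2OX, against 16, 5.95 and 4.44 in the sextuple mutant and 0.0986 to 10.7 in wild type (4.41 ± 0.43, adjusted p = 0.00015). In each of these genes every 2OX library stood above every other library, and for the sextuple libraries the rule for named genes required this. Apart from the sextuple value of 16 for AT5G24640, these genes reached 10 in 2OX libraries alone. They passed the filter through 2OX and could be called only as higher. The OPA3-like gene AT3G58150 had 248, 236 and 197 in 2OX, against 11.7, 9.84 and 17.4 in the sextuple mutant and 2.4 to 12.7 in wild type (4.05 ± 0.30, adjusted p = 1.3e-05). The RNA gene AT3G05955 had 35.2, 12.5 and 35.2 in 2OX, against 0.00414, 0.00876 and 0.644 in the sextuple mutant (4.46 ± 0.86, adjusted p = 0.041). Its call was the least secure of the large increases, and leaving out any library but 2OX replicate 2 gave adjusted p of 0.066 to 0.3. AT3G05955 also passed the filter only through its 2OX libraries.

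Other increases with known functions were smaller, and these genes were chosen for description after their values were seen. AT2G41730, annotated as a calcium-binding site protein, had 457, 535 and 448 in 2OX, against 92.6, 97.8 and 96.8 in the sextuple mutant and 134 to 185 in wild type (2.31 ± 0.17, adjusted p = 1.4e-05). ALAAT2, an alanine aminotransferase, had 798, 616 and 779.9 in 2OX, against 221, 311 and 210.1 in the sextuple mutant and 226 to 266 in wild type (1.57 ± 0.19, adjusted p = 0.001). CRF6, a cytokinin response factor, had 453, 315 and 480.1 in 2OX, against 174, 154 and 195 in the sextuple mutant and 309 to 329.7 in wild type. It was the sextuple mutant that lay outside the wild-type range for CRF6 (1.23 ± 0.20, adjusted p = 0.013, and 0.063 to 0.1 without 2OX replicate 1 or 3 or sextuple replicate 1 or 2). The phytosulfokine precursors PSK1 and PSK4, which encode secreted growth peptides, were both higher at 1.07 and 0.80 (adjusted p = 0.034 and 0.039), although neither stayed past the threshold when any library but 2OX replicate 2 was left out (0.054 to 0.19). PRR5, a repressor of the circadian clock, was the 1 called gene of 12 clock genes (8.33%, beside 0.473% of all genes tested). It had 4528, 3967 and 3376 in 2OX, against 2610.5, 2191 and 2291 in the sextuple mutant and 1927 to 3385 in wild type (0.74 ± 0.14, adjusted p = 0.043). PRR5 lost its call without 2OX replicate 1 or any 1 of the sextuple libraries (0.12 to 0.27).

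In a direct comparison of 2 lines a difference can come from either one, so each called gene was placed against the range of the 4 wild-type libraries. A line counted as outside where all 3 of its libraries lay beyond that range on the same side. Among the 55 increases, 2OX alone was outside in 27, the sextuple mutant alone in 16, both in 9 and neither in 3. Among the 39 decreases the counts were 14 for 2OX alone, 9 for the sextuple mutant alone, 7 for both and 9 for neither. Over all genes tested the shares were 5.95%, 7.3%, 1.66% and 85.1% in the same order. This position is a description, since calling a gene for a difference between the lines makes it likely that 1 of them leaves the wild-type range.

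The largest difference set by the sextuple mutant was at AT4G33500 (chr4:16112624-16116383), a gene for a protein phosphatase of the 2C family. It had values of 873, 883 and 702 in 2OX, against 21.3, 8.85 and 4.89 in the sextuple mutant and 833 to 973 in wild type. The transcript was thus nearly lost in all 3 sextuple libraries, with a log2 difference of 6.23 ± 0.38 (adjusted p = 3.7e-06). The adjacent gene RPD1 (AT4G33495) was also called, at 188, 181 and 186 in 2OX, against 90.8, 92.9 and 83.8 in the sextuple mutant and 112 to 169 in wild type (1.05 ± 0.19, adjusted p = 0.035, and 0.12 to 0.14 when any library but 2OX replicate 2 was left out). AT3G05170, a phosphoglycerate mutase family gene, had 70.7, 67.2 and 63.2 in 2OX, against 7.95, 0.103 and 2.28 in the sextuple mutant and 49 to 109 in wild type (4.42 ± 0.69, adjusted p = 0.011, and 0.062 and 0.056 without 2OX replicate 1 or 3). AT4G33500 and AT3G05170 needed their 2OX libraries to pass the filter. TPPG, a trehalose-6-phosphate phosphatase, had 299.8, 309 and 298 in 2OX, against 65.6, 63 and 71.4 in the sextuple mutant and 244 to 366 in wild type (2.17 ± 0.19, adjusted p = 6.5e-05). In all of these 2OX was at the level of wild type, apart from RPD1, where 2OX lay above it.

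In the other direction, SADHU3-2 (AT3G42658, chr3:14749400-14750294), a retroposon of a family known for epigenetic variation between Arabidopsis strains, had 8.01, 22.9 and 24.1 in 2OX, against 693, 692 and 917 in the sextuple mutant. Wild type was at 20.1 to 47.2, so the element was 43.4-fold higher in the sextuple mutant than in 2OX (log2 difference -5.44 ± 0.34, adjusted p = 3.7e-06). AT5G35760, annotated as a beta-galactosidase related protein, had 8.94, 9.26 and 15.3 in 2OX, against 142, 194 and 180.3 in the sextuple mutant and 5.92 to 23.2 in wild type (-3.86 ± 0.32, adjusted p = 4.4e-05). This gene needed its sextuple libraries to pass the filter. LBD26, a LOB-domain transcription factor gene, had 138, 102 and 101 in 2OX, against 381, 414 and 395 in the sextuple mutant and 57.9 to 69.6 in wild type. Both lines were therefore above wild type for LBD26, the sextuple mutant more so (-1.81 ± 0.19, adjusted p = 0.00027). COR15B, a cold-regulated chloroplast protein, had 88.8, 173 and 117 in 2OX, against 464, 799 and 415 in the sextuple mutant and 76.9 to 316 in wild type (-2.13 ± 0.27, adjusted p = 0.0021). It was the 1 called gene of 14 in the list of cold, drought and abscisic acid genes (7.14%, beside 0.473% of all genes tested). Without 2OX replicate 2, 4 were called, beside 3.3% of all genes. The actin-related gene ARP9 had 242, 296 and 295 in 2OX, against 662, 604 and 676 in the sextuple mutant and 246 to 284 in wild type (-1.22 ± 0.15, adjusted p = 0.0018).

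Glucosinolates are sulfur-containing defence compounds of Brassicaceae, and the aliphatic ones are made from methionine after chain elongation. Of the 17 genes of their synthesis in the list, all were tested and 3 were called (17.6%, beside 0.473% of all genes tested), all lower in 2OX. All 17 had a negative difference, 14 of them at unadjusted p under 0.05, with a median of -0.92 beside 0.00 over all genes. Of all 19870 genes 1065 were lower at unadjusted p under 0.05. Without 2OX replicate 2 the calls were 14 of 17, beside 3.3% of all genes, and the median was -1.07. BCAT4, the aminotransferase that starts chain elongation, had values of 471, 663 and 638 in 2OX, against 1643, 2034 and 1443 in the sextuple mutant and 592 to 1198 in wild type. The sextuple libraries were above wild type and the difference was -1.53 ± 0.17 (adjusted p = 0.00066). MAM1, the condensing enzyme of elongation, had 1729.9, 1534 and 1910.4 in 2OX, against 3203, 3475 and 3062 in the sextuple mutant and 2252 to 3323 in wild type (-0.92 ± 0.13, adjusted p = 0.0067, and 0.053 and 0.076 without sextuple replicate 1 or 2). CYP83A1, which oxidises the aldoximes of the pathway, had 113, 119 and 175 in 2OX, against 351, 332 and 332 in the sextuple mutant and 191 to 467 in wild type (-1.34 ± 0.20, adjusted p = 0.0077, and 0.054 to 0.071 without any 1 of the sextuple libraries). For MAM1 and CYP83A1 2OX was the line below the wild-type range.

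The regulators and the indolic branch did not reach the threshold with all libraries, although all 17 differences in the list were negative. MYB28, which activates the aliphatic genes, had 393, 894 and 427 in 2OX, against 708, 913 and 936 in the sextuple mutant (-0.67 ± 0.26, adjusted p = 0.37), and MYB29 had 54.6, 148 and 71.6 in 2OX, against 155, 239 and 181 in the sextuple mutant (-1.16 ± 0.32, adjusted p = 0.18). In both genes 2OX replicate 2 was the highest 2OX library. Summed over the 17 genes the values were 5945, 9922 and 7074 in 2OX, against 12564, 14117 and 12447 in the sextuple mutant and 8325 to 13369.8 in wild type. Enzymes of methionine chain elongation outside the list were also called lower, and are named after their values were seen. IMD1 was at -1.09 (adjusted p = 0.0027), IMS2 (also known as MAM3) at -1.16 (0.0084) and IPMI2 at -0.91 (0.035). The IMS2 call was lost without sextuple replicate 1 or 2 (0.083 and 0.076), and that of IPMI2 when any library but 2OX replicate 2 was left out (0.12 to 0.17). AK3, an aspartate kinase at the head of methionine, threonine and lysine synthesis, had 118, 232 and 256 in 2OX, against 652, 557 and 637 in the sextuple mutant and 327 to 692 in wild type (-1.68 ± 0.25, adjusted p = 0.0075, and 0.071 and 0.055 without sextuple replicate 1 or 3).

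A second group moved with the library that stood apart. Genes that sugar starvation induces, with genes of branched-chain amino acid breakdown (10 genes, a list made after the values were seen), summed to 144631, 37179 and 100033 in 2OX, against 53037, 39902 and 46534 in the sextuple mutant and 35376 to 77263 in wild type. 2OX replicates 1 and 3 were above every other library and 2OX replicate 2 was among the lowest. With all libraries 0 of the 10 genes were called, with 6 at unadjusted p under 0.05 and a median of 0.76, and without 2OX replicate 2 all 10 were called higher with a median of 1.33. Over all genes tested 10.3% had unadjusted p under 0.05, and 1.5% were called higher without 2OX replicate 2. ASN1, the asparagine synthetase induced in the dark, had 17109, 2774 and 12208 in 2OX, against 5195, 3505 and 4596 in the sextuple mutant and 3774 to 8326 in wild type. BCAT-2, a branched-chain amino acid transaminase, had 1652, 112 and 809.6 in 2OX, against 115, 105 and 105 in the sextuple mutant and 86.3 to 357 in wild type. The 2OX library with the lowest starvation values was also the one with the highest glucosinolate sum, and the part of the starvation genes' state in the glucosinolate difference was not tested.

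**Figure D4:**
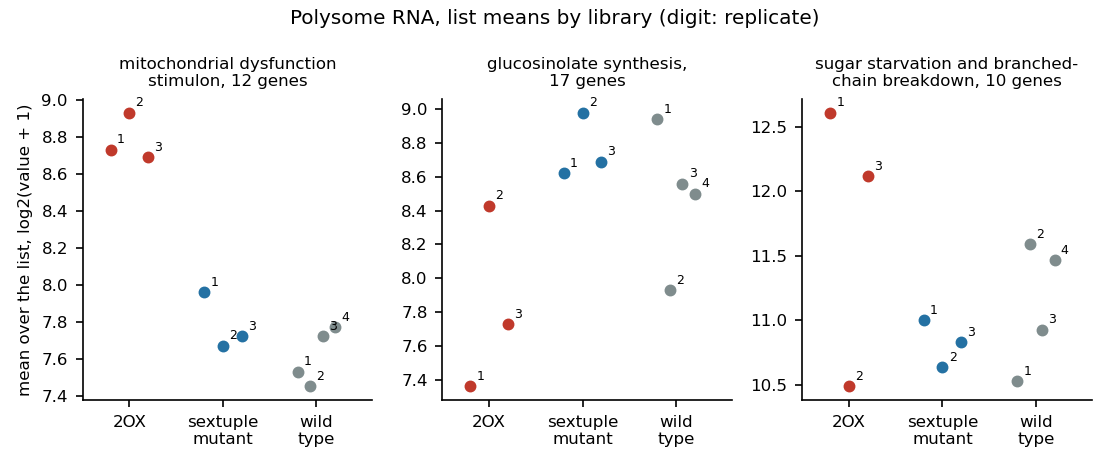
Mean log2(value + 1) of 3 gene lists in each polysome library of 2OX, the sextuple mutant and wild type, 1 point per library. For the glucosinolate list the 3 2OX libraries lie at 7.36 to 8.43 and the sextuple libraries at 8.62 to 8.98, and for the sugar starvation list 2OX replicate 2 (10.49) lies apart from 2OX replicates 1 and 3 (12.61 and 12.12).

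Among the genes lower in 2OX were factors of shade signalling and small auxin-induced genes. HB-2 (ATHB2), the class II homeodomain leucine zipper factor that far-red light induces, had 943, 599 and 986 in 2OX, against 2418, 2988 and 2742 in the sextuple mutant and 1246 to 2273 in wild type. 2OX lay below and the sextuple mutant above wild type, with a log2 difference of -1.72 ± 0.18 (adjusted p = 0.00037). HB4, its relative, had 199.9, 127 and 145 in 2OX, against 541, 572 and 396 in the sextuple mutant and 186 to 652 in wild type (-1.68 ± 0.21, adjusted p = 0.0017). In the class II family, chosen after the values were seen, these 2 of 10 genes were called (20%, beside 0.473% of all genes tested). At unadjusted p under 0.05, 6 were lower, beside 1065 of all 19870 genes. Without 2OX replicate 2, 5 were called lower, beside 1.79% of all genes. HFR1, a bHLH factor of shade signalling, had 416, 298 and 333 in 2OX, against 538, 743 and 716 in the sextuple mutant and 462 to 633 in wild type (-0.93 ± 0.18, adjusted p = 0.042, and 0.065 to 0.25 without 2OX replicate 3 or any 1 of the sextuple libraries).

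SAUR genes are induced by auxin and promote cell expansion, and the family was chosen for description after its values were seen. Of 61 tested, 4 were called (6.56%, beside 0.473% of all genes tested), all lower. At unadjusted p under 0.05, 21 were lower and 3 higher, beside 1065 lower and 986 higher of all 19870 genes. The median was -0.23, with 17 of the 61 differences above 0. Without 2OX replicate 2, 16 were called, 2 higher and 14 lower, beside 3.3% of all genes tested. SAUR20 had 460.0, 437 and 377 in 2OX, against 744, 798 and 1091 in the sextuple mutant and 439.6 to 1120.3 in wild type (-1.03 ± 0.17, adjusted p = 0.017). SAUR23 had 398, 223 and 327 in 2OX, against 589, 781 and 1033 in the sextuple mutant and 315 to 984 in wild type (-1.34 ± 0.23, adjusted p = 0.024). The wild-type libraries spread over the values of both lines for these genes, which lie in 1 cluster of close copies, so reads could be divided between them in an unknown way. SAUR68 and AT4G34760 differed by -0.77 and -0.86 (adjusted p = 0.039 and 0.035). None of the 4 calls stood without 2OX replicate 3 (0.056 to 0.15), without sextuple replicate 2 (0.076 to 0.22) or without sextuple replicate 3 (0.085 to 0.21).

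Other large decreases were of enzymes, a membrane protein, a TIR-domain protein and a transcription factor gene. FUM2, the cytosolic fumarase, had 284, 362 and 324 in 2OX, against 981, 1027 and 890.1 in the sextuple mutant and 513 to 824 in wild type. The groups did not overlap, with 2OX below and the sextuple mutant above wild type (-1.58 ± 0.15, adjusted p = 0.00014). GSTF14, a phi class glutathione S-transferase, had 98.8, 128 and 224 in 2OX, against 467, 722 and 639.8 in the sextuple mutant and 201 to 652 in wild type (-2.07 ± 0.27, adjusted p = 0.0021). GSTU20, a tau class enzyme named after its values were seen, had 3233, 3556 and 4026 in 2OX, against 7421, 7391 and 9462 in the sextuple mutant and 4650.3 to 6745 in wild type (-1.16 ± 0.15, adjusted p = 0.0018). RCI2B, a small hydrophobic membrane protein of the cold response, had 1033, 1962 and 800.2 in 2OX, against 3319, 3929 and 3256 in the sextuple mutant and 3268 to 5016 in wild type (-1.57 ± 0.25, adjusted p = 0.013). Here 2OX was the line outside wild type, and the call was lost without 2OX replicate 1 or any 1 of the sextuple libraries (0.054 to 0.11).

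TIR (AT1G72930), a gene for a protein with a Toll/interleukin-1 receptor domain, had 78, 259.7 and 201 in 2OX, against 777, 713 and 393 in the sextuple mutant and 266 to 1047 in wild type (-1.90 ± 0.37, adjusted p = 0.043, and 0.054 to 0.26 when any library but 2OX replicate 2 was left out). LBD4, a LOB-domain transcription factor gene, had 32.3, 37.8 and 60.8 in 2OX, against 124, 104 and 184 in the sextuple mutant and 74 to 145 in wild type (-1.64 ± 0.31, adjusted p = 0.035, and 0.088 to 0.21 without 2OX replicate 1 or any 1 of the sextuple libraries). CML10, a calmodulin-like calcium sensor, had 256, 331 and 318 in 2OX, against 573, 525 and 583 in the sextuple mutant and 397 to 741 in wild type. It was the 1 called gene of 11 touch and calcium sensor genes (9.09%, beside 0.473% of all genes tested). The log2 difference was -0.90 ± 0.16 (adjusted p = 0.027, and 0.061 to 0.16 when any library but 2OX replicate 2 was left out).

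Many groups relevant to mitochondria and translation held no call, although single genes passed an unadjusted p. Over all genes tested 0.473% were called and 10.3% had unadjusted p under 0.05. Of 75 nuclear genes of oxidative phosphorylation 0 were called, with 6 lower at unadjusted p under 0.05, a median of -0.09 and a range of -0.55 to 0.36. For the mitochondrial ribosome the count was 0 of 58 (2 at unadjusted p, median -0.03) and for chaperones 0 of 60 (12 at unadjusted p, median -0.19, 3 called lower without 2OX replicate 2). Of 138 cytosolic ribosomal protein genes 0 were called, but 122 had a negative difference, 21 were lower at unadjusted p and the median was -0.22. In monosome RNA the same list had 96 of 138 differences above 0, a median of 0.08, 0 calls and 2 genes at unadjusted p. These lists were chosen by the study. The 239 tested pentatricopeptide repeat genes, which mostly process organelle RNA, had 0 calls (15 at unadjusted p) and a median of 0.10. All 10 mitochondrial genome genes tested had a positive difference (median 0.41, 0 called, 3 at unadjusted p), while the chloroplast genome had 0 of 55 called (2 at unadjusted p, median 0.18) and nuclear photosynthesis genes 0 of 69 (2 at unadjusted p, median 0.04). Organelle transcripts are poorly represented in RNA selected for poly(A) and organelle ribosomes sediment in the same gradients, so these values describe what entered the libraries.

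For signalling and nutrient lists the counts were similar. The 11 genes of eIF2alpha phosphorylation, GCN2, TOR and SnRK1 had 0 calls with 1 at unadjusted p, and a range of -0.36 to 0.18. Jasmonate synthesis and response genes had 0 of 12 called with 5 lower at unadjusted p and a median of -0.46, and 6 were called lower without 2OX replicate 2. Anthocyanin and flavonol synthesis genes had 0 of 9 called (2 at unadjusted p, median -0.47), leaf senescence genes 0 of 12 (3 at unadjusted p, median 0.21) and salicylate defence genes 0 of 6 (1 at unadjusted p). Iron deficiency (0 of 12), phosphate starvation (0 of 8) and nitrate genes (0 of 6) likewise had no call, with 4, 1 and 1 at unadjusted p.

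The monosome fraction of the same extracts was the second readout. Of 19563 genes tested there, 75 (0.383%) were called, 43 higher (0.22%) and 32 lower (0.164%) in 2OX, and 1950 (9.97%) had unadjusted p under 0.05. Without 2OX replicate 2 the calls were 327 (1.67%), 158 higher (0.808%) and 169 lower (0.864%), and with 1 of the others left out they were 26 to 42. Of the 94 polysome calls 92 were tested in monosome RNA. All 92 had the same sign in both fractions, and 44 genes were called in both, which is 46.8% of the polysome calls and 58.7% of the monosome calls. As the fractions come from the same seedlings, this is not an independent replicate. The increases tested in both had median log2 differences of 1.51 in polysome and 1.67 in monosome RNA, and the decreases -1.22 and -1.01. MCU2 had 593, 549 and 800.3 in 2OX monosomes, against 179, 130.3 and 161 in sextuple monosomes (2.03 ± 0.23, adjusted p = 0.00027). UPOX had 412, 373 and 359.9 in 2OX monosomes, against 18.9, 28.4 and 11.9 in sextuple monosomes (4.28 ± 0.36, adjusted p = 8.4e-06), and SADHU3-2 had 63.9, 116 and 98.9 in 2OX, against 2764, 2176 and 3424 in the sextuple mutant (-4.91 ± 0.24, adjusted p = 4.6e-09). These genes thus showed their differences in both fractions.

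**Figure D5:**
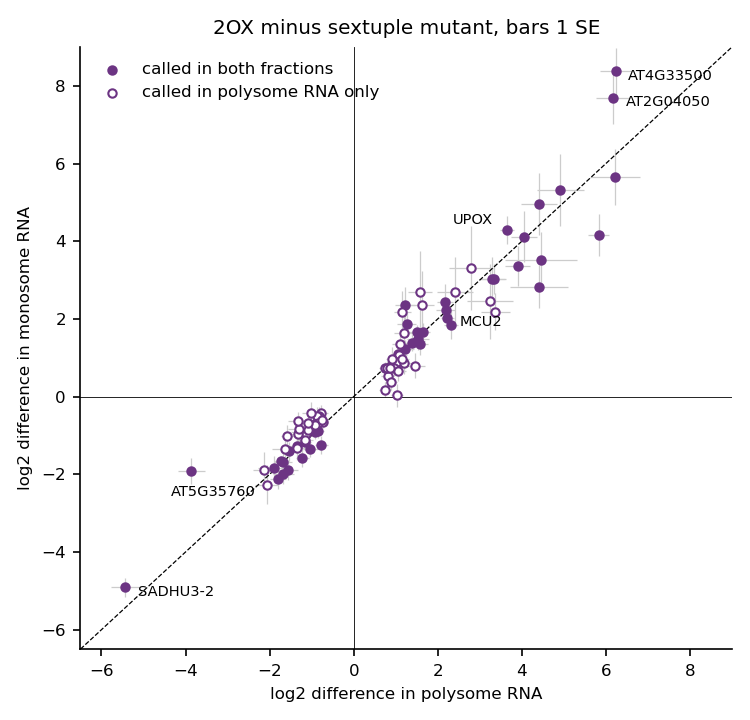
Log2 difference, 2OX minus sextuple, of the 92 polysome calls tested in both fractions, with polysome RNA on the x axis and monosome RNA on the y axis and bars of 1 SE. All 92 points lie in the quadrants where the signs are the same, and 44 of them were called in both fractions.

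Whether the difference itself differed between the fractions was tested as an interaction over the 12 libraries. Of 20574 genes 0 were called by limma (smallest adjusted p = 1), and 562 (2.73%) had unadjusted p under 0.05. Among the 92 polysome calls 8 had an interaction at unadjusted p under 0.05. AT5G35760 was one of them, with a difference of -3.86 in polysome and -1.91 in monosome RNA (adjusted p of the interaction = 1). PLA2A, a lipid acyl hydrolase, was another, with 539.7, 529 and 486 in 2OX polysomes, against 262, 238 and 258 in sextuple polysomes, and 120.4, 106 and 88.1 in 2OX monosomes, against 119.7, 93.7 and 95.1 in sextuple monosomes. It rose in polysome RNA (1.03 ± 0.15, adjusted p = 0.0069) and overlapped between the lines in monosome RNA (0.03 ± 0.30), but the interaction of 1.00 ± 0.29 did not pass adjustment (limma adjusted p = 1), and the polysome call was lost without sextuple replicate 2 (0.062). The median SE was 0.21 for a polysome difference, 0.28 for a monosome difference and 0.36 for the interaction.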

How the data were processed

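Polysome and monosome fractions of sucrose gradients were sequenced as poly(A) RNA, and per the labels reads were aligned with Bowtie 0.12.2 to TAIR10. The deposited values are a signal, library-size adjusted abundances made by the authors for each comparison with wild type, in 1 table per line and fraction. The columns the authors made for their own comparisons (fold changes, p-values and importance scores) were not used. Values between 0.3 and 8 were within 0.1 step of a whole multiple for 28.5 to 88.1% of entries in the 6 polysome libraries, so whole reads could not be recovered. Depth in reads is unknown and no counting interval is given.

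The tables shared wild-type libraries 2 and 4, whose median log2 ratio over genes above 500 was 0.2472 for both in polysome tables and 0.2447 and 0.2247 in monosome tables. This offset (the mean for monosomes, 0.2347) brought the tables to one scale. Wild-type library 1 came from the sextuple table, library 3 from the 2OX table, and libraries 2 and 4 are given as the 2OX table has them. Genes in both tables that reached 10 in 3 or more of the 6 libraries were tested on log2(value + 1), two-sided, with limma 3.58.1 (R 4.3.3, lmFit and eBayes with a trend), with Benjamini-Hochberg adjustment over all genes tested and a threshold of 0.05. Differences are 2OX minus sextuple mutant on the log2(value + 1) scale, which understates the change of low genes, and a fold change is 2 to that power. The fits were tested on simulated data with known changes and noise drawn independently for each library. Of simulated log2 differences of 1, 38% were called in polysome RNA, 21% in monosome RNA and 7% for the interaction. At a log2 difference of 2 the shares were 83%, 60% and 52%, so 0 calls do not exclude such differences. The study's methods name no test for these libraries.

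The comparison, the gene lists and the motif were chosen with earlier results of these data known. The rule for named genes took the MCU and MICU genes, the 12 largest increases and 12 largest decreases among calls whose libraries did not overlap, and the called members of the lists. Gene names and coordinates are RefSeq's on TAIR10.1. Replicate numbers were taken to pair the polysome and monosome fractions of 1 line, and differently numbered pairs were not compared. Deviations from the group means of same-numbered libraries correlated at 0.27 to 0.46 in 2OX and 0.16 to 0.24 in the sextuple mutant. The main fits used no pairing of fractions or lines. Alternatives were other pseudocounts, filters and scalings, a joint fit with wild type, no variance trend, a replicate block and each library left out.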

Additional observations from a re-analysis of the deposited data

Results flagged for a closer look

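In 50 sets of 4 wild-type values (the polysome values of the 48 named genes and the library sums of both fractions), the highest library lay apart from the other 3 in 2 genes by more than the 95% critical value of Dixon's ratio. For AT4G33500 the highest wild-type value was 973 (ratio 0.865), with 2OX at 702 to 883 and the sextuple mutant at 4.89 to 21.3. For RCI2B it was 5016 (ratio 0.850), with 2OX at 800.2 to 1962 and the sextuple mutant at 3256 to 3929. Chance alone marks about 1 in 20 such sets, and neither value enters the test between the lines.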

How the results depend on the processing

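The 94 polysome calls became 28 and the 75 monosome calls became 10 without the variance trend, and 343 and 228 with the replicate number as a replicate block. With 1 library left out they ranged from 40 to 655 in polysome and from 26 to 327 in monosome RNA, the highest both times without 2OX replicate 2. Pseudocounts of 5 and 0.5, no filter, a minimum of 50, both other scalings and the joint fit with wild type gave 88 to 96 polysome and 71 to 95 monosome calls, and taking genes listed in either table gave 96 polysome calls. The interaction had 0 calls under each alternative run, the replicate block included. Whether the replicate numbers pair the lines is not settled. Deviations of same-numbered 2OX and sextuple libraries correlated at 0.02, 0.25 and 0.28 in polysome and 0.00, 0.18 and 0.18 in monosome RNA. For replicates 2 and 3 across numbers this was -0.20 and -0.33 in polysome and -0.14 and -0.24 in monosome RNA. Replicates 2 and 3 thus went with their own number, while replicate 1 of each line shared little with any library of the other. Of 43 called genes that the rule named, 24 lost the call under some alternative and 1 uncalled gene changed sign, MICU, at -0.22 to 0.05 with 1 library left out, the last without 2OX replicate 2. Of the 94 calls 22 stood under every polysome alternative. The planned edgeR and DESeq2 fits were not run, since whole reads could not be recovered. Depth limits single genes at low values, and 3 libraries a line limit the precision. The causes of these changes were not tested.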

Other observations

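Some polysome calls belong to groups not described above, and they were chosen after their values were seen. Genes of salicylate metabolism moved in opposite directions. ICS2, an isochorismate synthase, had 184, 238 and 230.5 in 2OX, against 625, 541 and 449 in the sextuple mutant and 314 to 388 in wild type (log2 difference -1.30 ± 0.18, limma adjusted p = 0.004, and 0.053 without sextuple replicate 1). UGT74F2, which glucosylates salicylate, had 927, 763 and 787 in 2OX, against 471, 519 and 491 in the sextuple mutant and 648 to 783 in wild type (0.74 ± 0.14, adjusted p = 0.043, and 0.12 to 0.22 when any library but 2OX replicate 2 was left out). The neighbouring thioredoxin superfamily genes AT4G15660 and AT4G15670 were higher at 1.16 and 1.58 (adjusted p = 0.028 for both, and 0.055 to 0.12 when any library but 2OX replicate 2 was left out), and their sequences are alike, so reads could be divided between them. AT4G04223, an RNA gene, had 284, 225 and 218 in 2OX, against 68.5, 110.1 and 101 in the sextuple mutant and 399 to 578 in wild type, so it was below wild type in both lines (1.39 ± 0.23, adjusted p = 0.016, and 0.075, 0.082 and 0.054 without 2OX replicate 1, sextuple replicate 1 or sextuple replicate 3).

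Of the 75 monosome calls 31 were not called or not tested in polysome RNA. HAT3, a further class II homeodomain leucine zipper gene, had 837, 747 and 774 in 2OX monosomes, against 1447, 1203 and 1663 in sextuple monosomes (-0.86 ± 0.17, adjusted p = 0.041), with -0.74 in polysome RNA (adjusted p = 0.1). IPMI1, of methionine chain elongation, had 93, 215 and 184 in 2OX monosomes, against 376, 583 and 490.0 in sextuple monosomes (-1.62 ± 0.29, adjusted p = 0.018), with -1.37 in polysome RNA (adjusted p = 0.074). RCI2A, the neighbour of RCI2B, was at -1.01 in monosome RNA (adjusted p = 0.017) and -0.88 in polysome RNA (adjusted p = 0.14). The interaction with the fraction was not called for these genes. The RNA gene AT2G04735 was not tested in polysome RNA, where only the sextuple table listed it, at 109, 129.6 and 111 in sextuple polysomes and 0 in wild-type library 1. It was listed at 0 in all 3 2OX monosome libraries and had 127, 65.2 and 150.4 in sextuple monosomes, with 0 to 4 in wild type (adjusted p = 0.0014).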
